A study of Homo sapiens with 8 samples.

Results

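Inflammatory cytokines and chemokines are small secreted proteins by which a cell calls in and activates leukocytes, and carcinoma cells can make them without any leukocyte present. The 10 genes described here are TNF, IL6, IL1A, IL1B, CXCL8, CXCL1, CXCL2, CXCL3, CCL2 and LIF. They were chosen by name, with former symbols counted, and every probe set that the platform annotation lists for one of them and for no other gene was taken, which gave 21 probe sets. The 10 are part of 17014 genes that the annotation names on the arrays. The cells were 786-O, a long-established line from a human clear cell kidney carcinoma, without functional VHL. They received 25 μM pentamidine, an antiprotozoal diamidine drug that can bind DNA in the minor groove, for 6 h, or DMSO alone. Affymetrix expression arrays of 2 types were used, with 2 pentamidine and 2 DMSO arrays of each type, described by the labels as biological duplicates. All groups come from 1 cell line, 1 dose and 1 time, and the labels do not say whether both array types carried the same RNA.

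As background, TNF and the interleukin 1 pair IL1A and IL1B start the inflammatory cascade through receptors that activate the transcription factor NF-kB. IL6 and LIF act later, through receptors that share the IL6ST chain and signal to STAT3. CXCL8, CXCL1, CXCL2 and CXCL3 attract neutrophils through the receptors CXCR1 and CXCR2, and CCL2 attracts monocytes through CCR2. The mRNAs of most of these proteins are short-lived and are made from promoters that NF-kB can bind.

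The promoters of the 4 neutrophil chemokine genes are shown because the probe sets of CXCL1 and CXCL2 lay below DMSO on the first array type while the 2 bright ones of CXCL8 did not, and that of IL6 is shown as another gene with an NF-kB motif. None of these differences passed the threshold used below. CXCL3 had groups that overlapped, and the CXCL2 probe set of the second type lay above DMSO. A tie between promoter and direction was not tested. CXCL8 (chromosome 4, 73740569 to 73743716), CXCL1 (73869393 to 73871308), CXCL3 (74036589 to 74038689) and CXCL2 (74097040 to 74099195) lie in this order in one cluster in RefSeq's GRCh38.p14 annotation. Each sequence below runs 5′ to 3′ on the gene's own strand, covers 100 bases starting 120 bases before the annotated start site, and comes from RefSeq promoters of build GRCh38.p14. Capitals mark matches to the NF-kB consensus or to GGAATTTCC, searched on both strands.
CXCL1 (chr4:73869273-73869372, plus strand): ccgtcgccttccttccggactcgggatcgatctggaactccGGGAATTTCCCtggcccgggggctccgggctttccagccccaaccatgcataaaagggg
CXCL2 (chr4:74099216-74099315, minus strand): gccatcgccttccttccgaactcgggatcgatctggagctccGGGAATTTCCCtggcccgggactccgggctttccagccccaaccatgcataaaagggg
CXCL3 (chr4:74038710-74038809, minus strand): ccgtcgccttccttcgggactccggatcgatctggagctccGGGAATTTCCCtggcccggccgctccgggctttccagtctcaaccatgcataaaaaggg
CXCL8 (chr4:73740449-73740548, plus strand): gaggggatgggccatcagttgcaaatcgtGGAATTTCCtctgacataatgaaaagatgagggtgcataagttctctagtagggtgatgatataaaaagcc
IL6 (chr7:22727080-22727179, plus strand): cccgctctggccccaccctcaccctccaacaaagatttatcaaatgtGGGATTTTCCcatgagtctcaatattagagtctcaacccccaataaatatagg

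CXCL1, CXCL2 and CXCL3 carried the same run of capitals at nearly the same distance from the start site. It holds the NF-kB consensus on both strands, with matches that overlap, and GGAATTTCC lies inside it. Over 100 bases set at the motif, without gaps, CXCL1 was identical to CXCL3 at 92 positions, to CXCL2 at 74 and to CXCL8 at 32. A single base gained or lost lowers such a count, so it does not rank the genes by likeness. CXCL8 had GGAATTTCC 91 bases before its start site and no match to the longer consensus in its window. IL6 had its consensus match 73 bases before the start site. Among all 35116 promoters of the same length, 11.3% held the consensus and 0.461% held GGAATTTCC. RefSeq promoters were given for 8 of the 10 genes, and those of TNF, IL1A and IL1B held neither in the window of 250 bases before to 50 after the start site. A match describes the letters only, and binding was not measured.

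The authors scaled the intensities, so that the mean after trimming 2% from each end is 500.2 on the first type's arrays and 500.1 on the second's. With 2 arrays a group, their number limits the precision, and p-values measure only the spread between these arrays. Markers of the renal carcinoma line were bright on the first type, with VIM, CDH2, KRT18, PAX8 and KRT8 between the 89.7th and 99.9th percentile of mean level, and LHX1 and PAX2, the other two on the array, lay under the median. Of 12 leukocyte markers on that type none lay above the median of the table, CD14 reached 4.32 and 4.76 intensity units in pentamidine and 1.09 and 9.79 in DMSO, and none was listed at 0. Summed over the brightest probe set of each, the leukocyte markers gave 191 and 199 units in pentamidine and 200 and 212 in DMSO. Of 6 endothelial markers none, and of 6 stromal markers only LUM, lay above the median.

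In DMSO as in pentamidine, the cells gave strong signals for several of these genes on the first array type. Signals were weaker for TNF, CXCL3 and the interleukin 1 pair. The brightest probe sets of CXCL8, IL6 and CXCL1 lay at percentiles 99.4, 98.1 and 96.3 of mean level, and those of CXCL2, CCL2 and LIF at 88.0, 84.2 and 82.7. CXCL3 and TNF lay near the middle of the table, at percentiles 52.5 and 50.9, and IL1B and IL1A below it, at 47.1 and 34.8. A percentile describes the probe set, since probe sets differ in how strongly they bind, and it does not rank the transcripts. Genes of other tissues, 15 on the array, such as insulin and prolactin, had a median percentile of 19.6, and 1 of them, MBP, lay above the median of the table.

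**Figure D1:**
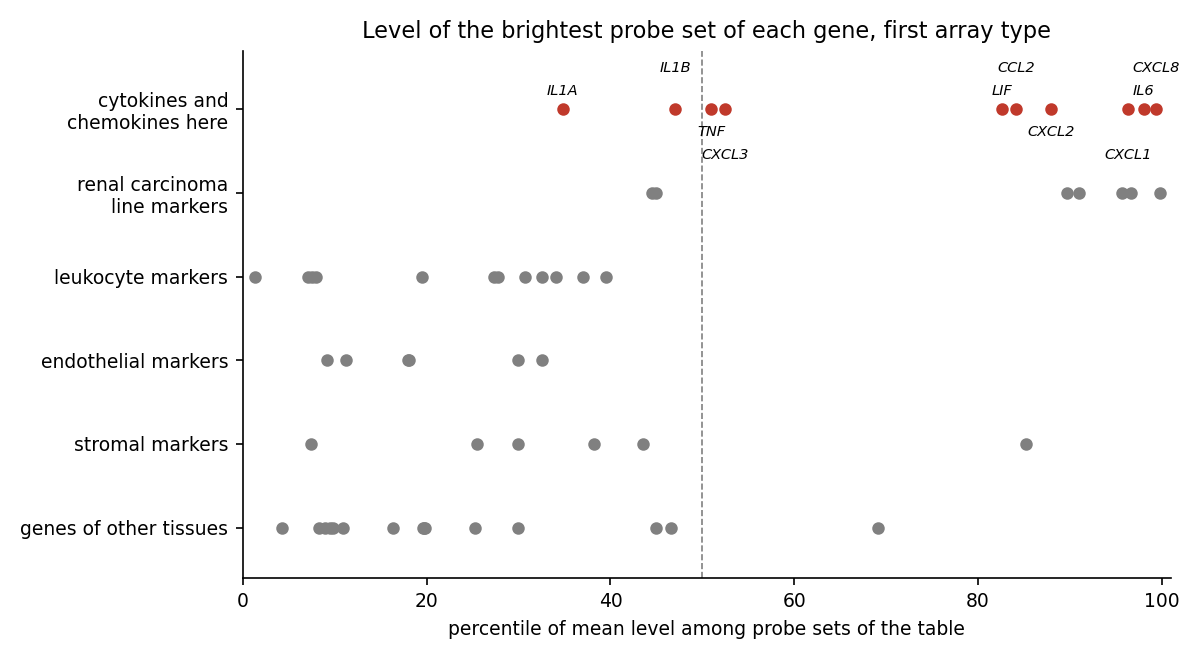
Percentile of mean level (horizontal axis, over the 4 arrays) of the brightest probe set of each gene on the first array type, in rows for the 10 genes and for marker lists, 1 point a gene. CXCL8, IL6 and CXCL1 sit beyond the 96th percentile and 5 of the 7 renal line markers at the 89.7th or above, while all 12 leukocyte markers sit under the 40th.

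For each array type alone, limma set pentamidine against DMSO over all probe sets that passed a filter on low values, on a log2 scale after adding 16 to each intensity. No probe set of the 10 genes passed a Benjamini-Hochberg adjusted p of 0.05 on the first type, where 13 of their 20 probe sets were tested and 0% of all 15550 tested probe sets passed. By limma the adjusted p of the 13 ranged from 0.926 to 0.952. The 13 include 217193_x_at, a weak probe set listed for CXCL8 and described below. Whether it measures CXCL8 was not tested. Over the 10 genes, each by its brightest tested probe set, 4 lay above and 6 below DMSO. Their median log2 fold change was -0.12, against 0.00 over all genes tested. An unadjusted p under 0.05 was found for 2 of the 13, TNF and CXCL2, and for 4.8% of all tested probe sets, 3.1% higher and 1.7% lower in pentamidine. The intensities of the groups did not overlap for 7 of the 13 probe sets, 4 higher and 3 lower in pentamidine, where this held for 35.2% of all tested probe sets, 19.4% higher and 15.7% lower. The 3 lower ones belonged to TNF, CXCL2 and CXCL1, and the 4 higher ones to IL1B, IL6 and CXCL8. In bulk RNA, fewer producing cells and less RNA per cell cannot be told apart.

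**Figure D2:**
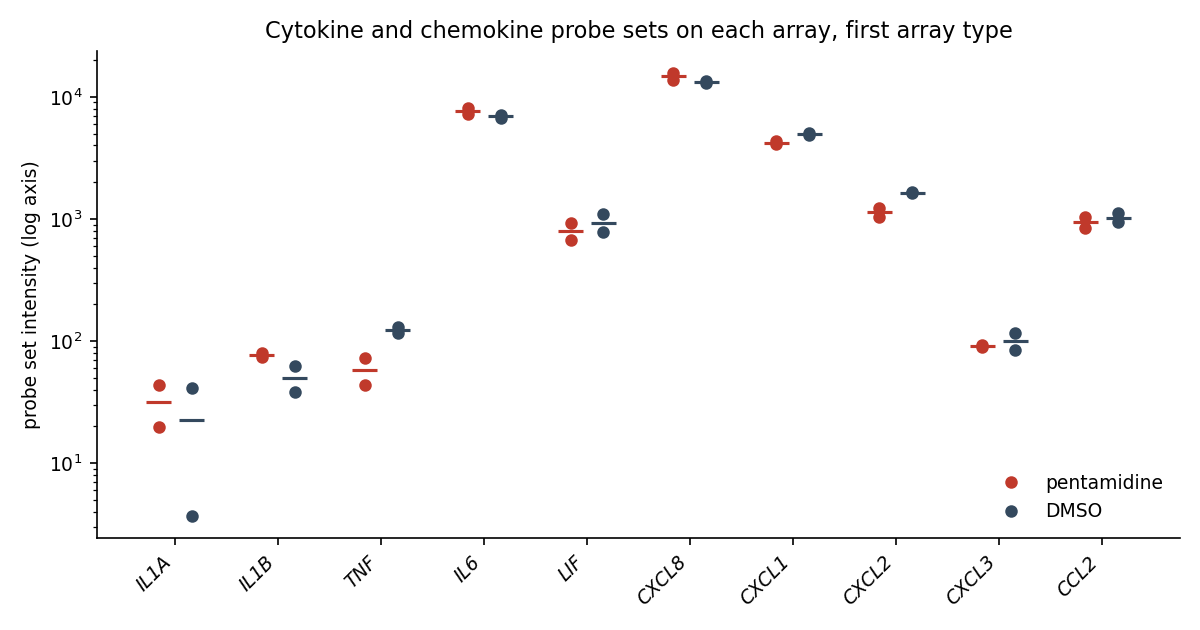
Intensity (log axis) of the brightest probe set of each gene on each array of the first type, with pentamidine in red left of DMSO in dark blue, points for arrays and bars for means of 2 arrays. TNF, CXCL1 and CXCL2 lie lower in both pentamidine arrays, and IL1B, IL6 and CXCL8 lie higher in both. The groups of IL1A, LIF, CXCL3 and CCL2 overlap.

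Of the cytokines that start the cascade, TNF measured 72.9 and 44.0 intensity units in pentamidine, against 117 and 129 in DMSO. Both pentamidine arrays lay under both DMSO arrays, and the probe set stood at percentile 45.4 in pentamidine and 56.1 in DMSO. The log2 fold change was -0.93 (95% interval -1.58 to -0.27, n = 2 per group, limma adjusted p = 0.926), a difference that did not pass. The pentamidine arrays themselves differed by 0.57 on this scale, and the DMSO arrays by 0.13. The size depends on the value added before the log, at -1.10 with 1 and -0.62 with 64.

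IL1B, the secreted interleukin 1 that needs cleavage by CASP1, was read by both of its probe sets in the other direction. The probe set 39402_at measured 79.9 and 74.4 units in pentamidine and 38.0 and 62.2 in DMSO. The other, 205067_at, measured 75.2 and 60.8 in pentamidine and 42.2 and 59.8 in DMSO. In each, both pentamidine arrays lay above both DMSO arrays, although for 205067_at by about 1 unit. The log2 fold changes were 0.52 (95% interval -0.11 to 1.15) and 0.33 (-0.24 to 0.90), neither past the threshold. Without DMSO array 1, the lower one, they were 0.25 and 0.14. Tested probe sets under the 50th percentile of those tested, as both are, had themselves a median of 0.08. Quantile normalization brought that median to -0.01 and the IL1B values to 0.41 and 0.22.

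IL1A, the interleukin 1 that is active without cleavage, was dim by both of its probe sets, meaning under the median of the table. Its probe set 210118_s_at measured 43.7 and 19.9 units in pentamidine and 3.70 and 41.5 in DMSO. These overlapped, and the log2 fold change of 0.46 had a 95% interval of -1.13 to 2.05 and turned to -0.31 without DMSO array 1. The probe set 208200_at, whose target is a RefSeq transcript of IL1A, measured 24.5 and 23.1 units in pentamidine and 7.92 and 2.58 in DMSO. It did not pass the filter on low values.

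IL6, the main inducer of the acute phase response, was bright on every array, at 8054 and 7178 units in pentamidine and 7149 and 6756 in DMSO. The lowest pentamidine array lay just above the highest DMSO array. The log2 fold change was 0.13 (95% interval -0.30 to 0.56), or -0.09 to 0.35 in a limma fit that lets the variance follow the level, so both intervals include 0. Leaving out pentamidine array 1 gave 0.047, and leaving out pentamidine array 2 gave 0.21. LIF, which acts through the same signalling chain, measured 933 and 672 units in pentamidine and 1092 and 778 in DMSO. These groups overlapped, with a gap within pentamidine of 0.46 and within DMSO of 0.48 on the log2 scale. Its log2 fold change was -0.22 (95% interval -0.94 to 0.50), and it turned to 0.02 without pentamidine array 2 and to 0.03 without DMSO array 1.

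CXCL8, the chemokine interleukin 8, was listed for 9 probe sets on the first type, and they did not measure alike. The probe set 202859_x_at, whose target is a RefSeq transcript of CXCL8, measured 15710 and 13868 units in pentamidine and 13435 and 12941 in DMSO. The probe set 211506_s_at measured 10376 and 9286 in pentamidine and 8863 and 9287 in DMSO. Both were thus among the brightest of the table, with the groups apart in the first and overlapping in the second. The log2 fold changes were 0.16 (95% interval -0.27 to 0.59) and 0.11 (-0.31 to 0.54). Without pentamidine array 1 they were 0.073 and 0.034, and without pentamidine array 2 they were 0.25 and 0.19. The brightest 2% of tested probe sets, to which both belong, had themselves a median of 0.14 on that scale. Quantile normalization brought that median to 0.00 and the CXCL8 values to 0.00 and 0.04.

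The other 7 probe sets listed for CXCL8 gave between 1.10 and 50.7 units in pentamidine and between 1.497 and 26.5 in DMSO. They lay between the 6.47th and 32.0th percentile, and 6 of them did not pass the filter. The tested one, 217193_x_at, measured 43.8 and 17.0 units in pentamidine and 4.72 and 26.5 in DMSO, which overlap. None of the 7 has a RefSeq transcript of CXCL8 as its target accession, but neither has the bright 211506_s_at. RefSeq status alone therefore does not set them apart, and which gene each target sequence comes from was not checked. Whether the 7 measure CXCL8 was not tested. A further 4 probe sets were listed for CXCL8 together with other genes, immunoglobulin genes among them in each case, and were not used for any gene.

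**Figure D3:**
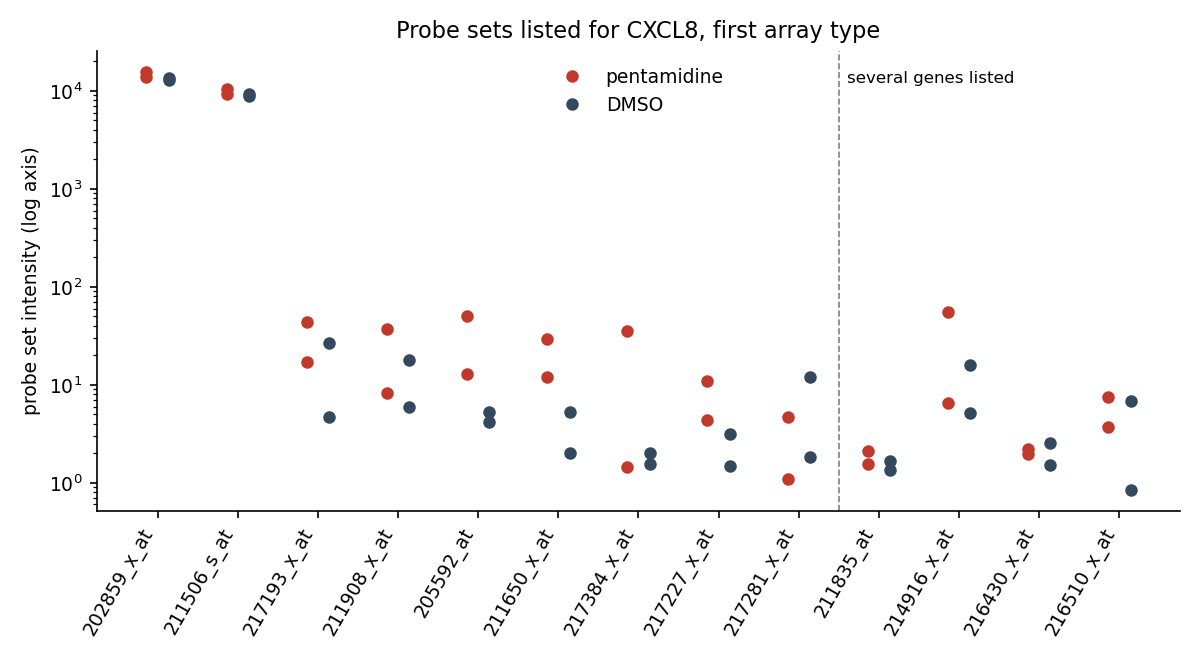
Intensity (log axis) of the 9 probe sets listed for CXCL8 alone and, right of the dashed line, of the 4 listed for CXCL8 with other genes, first array type, with pentamidine in red left of DMSO in dark blue and 1 point an array. Only 202859_x_at and 211506_s_at rise above 50.7 units in every array.

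CXCL1 and CXCL2, whose promoters share the run shown above, both lay lower in pentamidine on the first type. CXCL1 measured 4075 and 4380 units in pentamidine and 4903 and 5090 in DMSO. Its groups were apart, with a log2 fold change of -0.24 (95% interval -0.65 to 0.17) that did not pass. CXCL2 measured 1224 and 1040 units in pentamidine and 1665 and 1623 in DMSO by the probe set 209774_x_at. It averaged 1132 ± 130 in pentamidine and 1644 ± 29.8 in DMSO (SD, n = 2 each). Its log2 fold change was -0.54 (95% interval -0.99 to -0.09, limma adjusted p = 0.926), which did not pass either. In Affymetrix names the ending _x_at marks a probe set with probes that may bind related transcripts. The CXCL2 probe set has it, as has the bright 202859_x_at of CXCL8. Whether the CXCL2 probe set also reads CXCL1, or 202859_x_at another transcript, was not tested.

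With a variance that follows the level, the 95% intervals of TNF (-1.62 to -0.24), CXCL2 (-0.84 to -0.23) and CXCL1 (-0.47 to -0.01) lay below 0. In that limma fit these 3 of the 13 tested probe sets had an unadjusted p under 0.05, all lower in pentamidine, where 5.13% of all tested probe sets had one, 3.29% higher and 1.85% lower. Their limma adjusted p was 0.888 each, so none passed, as 0% of all did. Without the filter on low values the same fit gave 5 of 20 with such a p. Over all 22215 probe sets tested without it, 600 higher and 447 lower in pentamidine had one. The 5 were the same 3 and 2 dim ones higher in pentamidine. These 2 were IL1A 208200_at (log2 fold change 0.92, 95% interval 0.11 to 1.72) and CXCL8 211650_x_at (0.86, 0.0033 to 1.72). The latter is among the dim CXCL8 probe sets described above. The genes were chosen with earlier values of TNF and CXCL2 known, so the counts among the 10 genes are a description.

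CXCL3, the other gene with that run, had groups that overlapped. It measured 93.7 and 89.6 units in pentamidine and 85.2 and 116 in DMSO. The pentamidine values lay between the DMSO values, and the log2 fold change was -0.10 (95% interval -0.63 to 0.43), which turned to 0.09 without DMSO array 2. That interval includes the values of CXCL1 and CXCL2, and the difference between the 3 genes was not tested. CCL2, the monocyte chemokine, measured 1035 and 837 units in pentamidine and 1117 and 939 in DMSO. These overlapped too, at -0.14 (95% interval -0.67 to 0.39), and at 0.02 without pentamidine array 2.

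**Figure D4:**
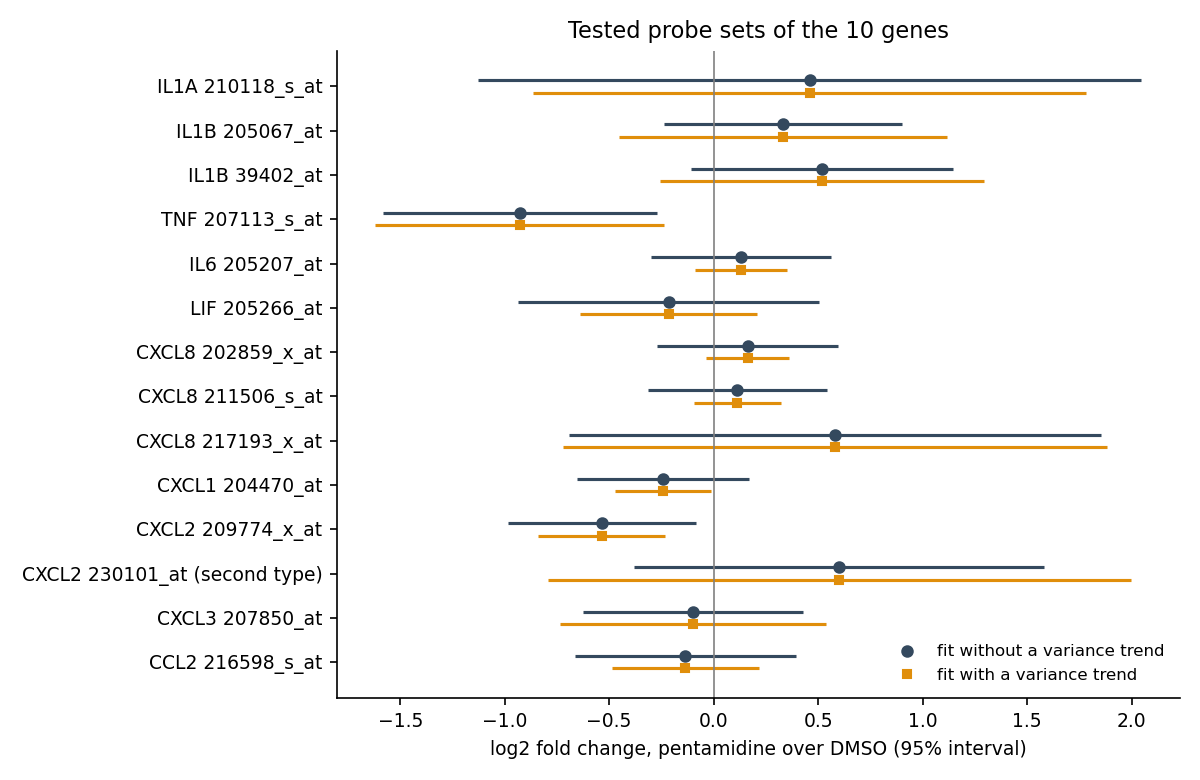
Log2 fold change of pentamidine over DMSO (horizontal axis) with its 95% interval for the 14 tested probe sets of the 10 genes, in a limma fit without (dark blue) and with (orange) a variance trend. The intervals of TNF and of the CXCL2 probe set on the first type lie below 0 in both fits, and the CXCL2 probe set of the second type lies on the other side of 0 with an interval that includes it.

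On the second array type 1 probe set, 230101_at of CXCL2, was listed for any of the 10 genes. It measured 300 and 261 units in pentamidine and 213 and 150 in DMSO. Here both pentamidine arrays lay above both DMSO arrays, opposite to the CXCL2 probe set of the first type. Groups were apart for 34.2% of the 15804 probe sets tested on this type, 17.4% higher in pentamidine. The log2 fold change was 0.60 (95% interval -0.38 to 1.58, limma adjusted p = 0.946), and 0% of the probe sets tested on this type passed, or 0.00633% with the variance trend, which is 1 probe set of no member. An unadjusted p under 0.05 was found for 7.04% of them, CXCL2 not included. The 3' to 5' ratio of the GAPDH control was 0.716 and 0.677 in pentamidine and 0.843 and 0.806 in DMSO on these arrays. That of ACTB was 1.23 and 1.21 in pentamidine and 1.47 and 1.27 in DMSO. That of ISGF3A was 2.15 and 2.52 in pentamidine and 4.70 and 2.73 in DMSO. On the first type DMSO array 1 had the highest ratio for each control, at 1.22 for ACTB, 0.966 for GAPDH and 3.80 for ISGF3A. DMSO array 2 of that type had 0.999, 0.861 and 2.25. Leaving out DMSO array 1 lowered the IL1B values and turned those of IL1A and LIF, as given above. The part of RNA quality in the CXCL2 value or in those of the first type was not tested. The tables were scaled apart, and the difference between the probe sets was not tested.

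Genes around these cytokines on the first type, in lists written with earlier results of these data known, held no gene past the threshold in either direction. Of 27 other cytokines and chemokines 13 were tested, 9 above and 4 below DMSO, and their median change was 0.06. CSF1, the growth factor of macrophages, measured 486 and 336 units in pentamidine and 676 and 646 in DMSO (log2 fold change -0.69, 95% interval -1.30 to -0.08). CXCL12, CXCL11 and IL32 had log2 fold changes of 0.56, 0.42 and 0.23, with intervals that include 0. CXCL12 and CXCL11 were dim. Only CSF1 had an interval apart from 0 among these 4, and it did not pass.

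Receptors that receive these signals lay above DMSO in 3 of 9 tested genes of 14, with a median of -0.03. TNFRSF1A, the main receptor of TNF, measured 793 and 682 units in pentamidine and 579 and 553 in DMSO. It was higher in both pentamidine arrays, with a log2 fold change of 0.37 (95% interval -0.08 to 0.81), or 0.01 to 0.72 with the variance trend. IL6R, the receptor chain specific for IL6, had 0.29, the scavenging receptor ACKR3 -0.24 and the decoy receptor IL1R2 0.28. Antagonists and processing enzymes lay above DMSO in 4 of 6, with a median of 0.04. IL1RN, which blocks the interleukin 1 receptor, measured 43.9 and 36.6 units in pentamidine and 18.8 and 23.2 in DMSO (log2 fold change 0.60, 95% interval 0.15 to 1.06), and its interval was -0.42 to 1.63 with the variance trend. ADAM17, the protease that sheds TNF, had -0.24, SOCS1 0.38 and CASP1 0.06.

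Signalling proteins close to the receptors lay above DMSO in 5 of 11 tested genes, with a median of -0.09. TRADD, the adaptor of TNFRSF1A, had a log2 fold change of -0.39 (95% interval -0.86 to 0.08), TRAF6 0.35, MAP3K7 0.20 and MAPKAPK2 -0.22. NF-kB subunits and inhibitors lay above in 8 of 13, with a median of 0.02. RELA, a transactivating subunit, measured 480 and 624 units in pentamidine and 418 and 361 in DMSO. Its log2 fold change was 0.48 (95% interval -0.07 to 1.03, or 0.07 to 0.89 with the variance trend). RELB had 0.41, BCL3 -0.26 and NFKB2 0.29.

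Proteins that bind, stabilise or break down cytokine mRNAs had the narrowest range of these lists, from -0.18 to 0.17. Of these, 4 of 10 lay above DMSO, with a median of -0.03. The brightest probe sets of these 10 genes all lay at the 64.3rd percentile of level or above. How far the narrow range follows from level was not tested. ELAVL1, which stabilises such mRNAs, had a log2 fold change of 0.17, the nuclease ZC3H12A -0.17, KHSRP -0.18 and ZFP36L2 -0.17. Adhesion molecules and other genes induced by the same signals lay above DMSO in 6 of 12, with a median of 0.02. TRAF1, an NF-kB target, measured 37.3 and 47.6 units in pentamidine and 82.7 and 84.0 in DMSO (log2 fold change -0.77, 95% interval -1.23 to -0.31). CEBPB, a transcription factor of the IL6 promoter, measured 2391 and 2809 units in pentamidine and 3195 and 3401 in DMSO (log2 fold change -0.34, 95% interval -0.80 to 0.11), and its interval was -0.61 to -0.08 with the variance trend. VCAM1 had 0.19 and TNFAIP2 -0.19. TRAF1 was dim and CEBPB bright, and neither passed, with a limma adjusted p of 0.926 each.

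**Figure D5:**
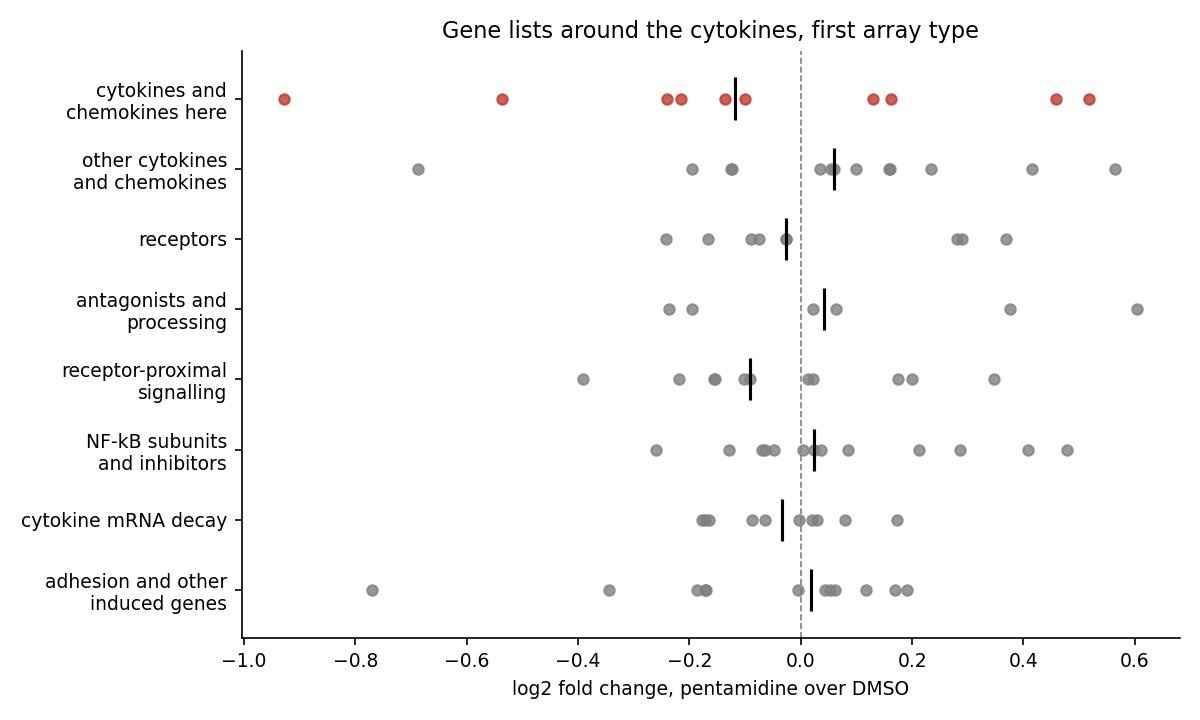
Log2 fold change of pentamidine over DMSO (horizontal axis) of each tested gene on the first array type, in rows for the 10 cytokines and chemokines (red) and for 7 lists around them (grey), with a black line at each median. The medians lie between -0.12 and 0.06, with genes on both sides of 0 in every row.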

How the data were processed

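The authors deposited linear probe set intensity values of 8 arrays in 2 tables. Affymetrix Expression Console was used, per the submitters' processing notes; version and algorithm: not given in the sources used here. Symbols were updated by gene ID to RefSeq GRCh38.p14. Of 22277 probe sets on the first type 19730 listed 1 gene, and of 22665 on the second 13588. Controls (62 and 88) and probe sets whose mean log2(intensity + 16) fell under the 30th percentile were not tested, leaving 15550 and 15804. Each type was fitted alone in limma 3.58.1 (R 4.3.3; lmFit, eBayes, no block, no variance trend), with Benjamini-Hochberg adjustment over all tested probe sets at 0.05. With 2 arrays against 2 the smallest 2-sided exact permutation p is 0.333, so no exact test was used. A gene stands for its brightest tested probe set in lists. All members were named, and up to 4 genes of each list (2 on the second type) by the largest absolute moderated t. Members, lists and tests were chosen with earlier results of these data known. The fits were tested on simulated data. Alternatives are given in the closing section.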

Additional observations from a re-analysis of the deposited data

Results flagged for a closer look

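The CXCL2 probe sets of the array types lay on opposite sides of DMSO. Every pentamidine array lay below both DMSO arrays on the first type (log2 fold change -0.54) and above both on the second (0.60). The probe sets differ, and neither has a RefSeq transcript of CXCL2 as its target. The tables were scaled apart, and the difference was not tested.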

How the results depend on the processing

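Alternatives numbered 15: quantile normalization, median centring, other filters and offsets, a variance trend, with or without a robust prior, a replicate block, each array left out, and the variance trend combined with no filter or with quantile normalization, the last 2 chosen after seeing the data. Under all of them 0 probe sets of the 10 genes passed on either array type, and their lowest limma adjusted p was 0.566. Over all probe sets of the second type, 1 passed with the variance trend, alone or with quantile normalization, and 2 with its robust prior or without a filter; the cause was not tested. Of 14 tested probe sets, 10 kept their direction in each alternative that tested them, among them TNF (-1.21 to -0.62), CXCL1 (-0.29 to -0.19) and CXCL2 (-0.65 to -0.42, and 0.37 to 0.83 on the second type). Where the groups do not overlap, as in these, leaving out 1 array cannot turn the direction. The filters, the variance trend, its robust prior and the replicate block leave the fold change itself unchanged. A kept direction is therefore no support for a change, and its share over all probe sets was not counted. Leaving out 1 array gave 0.047 to 0.21 for IL6, 0.073 to 0.25 and 0.034 to 0.19 for the bright CXCL8 probe sets, -0.46 to 0.025 for LIF (0.017 without pentamidine array 2), -0.29 to 0.090 for CXCL3, -0.31 to 1.23 for IL1A and -0.29 to 0.015 for CCL2. The replicate numbers were not shown to pair the arrays: deviations of same-numbered arrays correlated, over probe sets, at 0.0037 (first type) and 0.013 (second), and with a replicate block 0 probe sets passed on either type.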

Other observations

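The same lists on the second array type held few tested genes, and none passed in limma. TAB1, a partner of the kinase MAP3K7, measured 199 and 253 units in pentamidine and 17.9 and 32.3 in DMSO (log2 fold change 2.57, 95% interval 1.53 to 3.61, limma adjusted p = 0.395). NFKBIB, an inhibitor of NF-kB, measured 35.6 and 77.0 units in pentamidine and 197 and 209 in DMSO (log2 fold change -1.66, 95% interval -2.88 to -0.43, limma adjusted p = 0.528). Both genes had groups that did not overlap, as had 34.2% of all probe sets tested on this type. TAB1 in DMSO lay under the array medians of 143 and 135 units, and NFKBIB in pentamidine under those of 164 and 139. With the variance trend the intervals were 0.26 to 4.88 for TAB1 and -3.76 to 0.45 for NFKBIB, the latter including 0. On the first type their brightest tested probe sets had log2 fold changes of 0.02 (95% interval -0.80 to 0.84) and -0.07 (-0.66 to 0.52). Without the trend, the other genes named by the rule on the second type had intervals that include 0. CCL28, a mucosal chemokine, measured 651 and 546 units in pentamidine and 455 and 379 in DMSO (log2 fold change 0.50, 95% interval -0.40 to 1.41). IL6R measured 545 and 421 units in pentamidine and 211 and 395 in DMSO (0.70, 95% interval -0.59 to 1.98). RELA measured 24.8 and 215 units in pentamidine and 185 and 258 in DMSO (-1.27, 95% interval -4.08 to 1.54), the direction opposite to its probe set on the first type. The log2 fold changes of the rest were -1.08 for TNFSF13B, -0.75 for ACKR1, 1.499 for ADAM17, -0.14 for SOCS3, -0.28 for IRAK2, 0.59 for ELAVL1, 0.58 for KHSRP and -0.36 for TRAF1. ADAM17 measured 346 and 128 units in pentamidine and 63.0 and 66.3 in DMSO, where it too lay under the array medians.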
